A study of Rattus norvegicus with 6 samples.

Results

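The genes described here are 9 transcription regulators of the muscle lineage, chosen by name. They are the myogenic regulatory factors Myog, Myod1, Myf5 and Myf6, the MEF2 factors Mef2a, Mef2c and Mef2d, and the inhibitors Id1 and Id3. All 9 had a row among the 26126 entries of the deposited gene table, 7 had enough counts to be tested and 2, Myf5 and Myf6, were too low. Expression was measured by RNA sequencing in 6 libraries of H9c2, a cell line derived from embryonic rat heart that is widely used as a myoblast model. All 6 went through simulated ischemia and reperfusion, in which cells sat in an acidic buffer of pH 6.2 with 2-deoxyglucose and lactate, under gas of 95% nitrogen and 5% carbon dioxide. The chamber was flushed for 30 min and then stayed closed for a further 1.5 to 3.5 h, and the growth medium held 10% serum. Of the libraries, 3 came from cells given a control adenovirus (control) and 3 from cells given an adenovirus for PERK (adPERK). PERK, encoded by Eif2ak3, is a stress kinase of the endoplasmic reticulum that phosphorylates eIF2 alpha. The virus dose, the time from infection to harvest and the promoter of the PERK virus were not given in the sources used here, and no library without simulated ischemia was analysed here. The comparison asks how expression after simulated ischemia and reperfusion differs between cells given the PERK virus and cells given the control virus.

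The myogenic regulatory factors are basic helix-loop-helix proteins. They pair with E proteins, bind E-boxes in the DNA and turn on muscle genes: Myod1 and Myf5 commit cells to the lineage, Myog drives their differentiation, and Myf6 acts mainly in differentiating and mature fibres. MEF2 proteins bind A/T-rich sites and act with the myogenic factors on the same genes, while ID proteins lack the DNA-binding basic region and hold E proteins away from them. The Myog promoter is known to be driven by myogenic factors and MEF2 proteins. It is shown because Myog is the one gene of the 9 that changed and Myod1 and the MEF2 genes are among the others. The promoter sequences used here covered 7 of the 9, without Myod1 and Mef2c. Each ran from 250 bases before to 50 bases after the gene's start in the rat build GRCr8. In the Myog promoter at chr13:48297226-48297525 (plus strand, 5′ to 3′), capitals mark matches to the E-box CANNTG.
Myog promoter: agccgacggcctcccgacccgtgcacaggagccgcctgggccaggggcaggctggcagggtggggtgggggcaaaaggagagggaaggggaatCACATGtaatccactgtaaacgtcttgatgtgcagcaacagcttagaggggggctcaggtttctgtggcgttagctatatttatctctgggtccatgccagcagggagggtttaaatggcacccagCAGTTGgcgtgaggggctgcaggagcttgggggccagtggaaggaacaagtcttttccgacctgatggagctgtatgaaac

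The Myog E-boxes, CACATG and CAGTTG, begin at -157 and -31 relative to the gene's first base. Myf6 and Id1 had 1 E-box each, CATCTG and CAACTG, and the Myf5, Mef2a, Mef2d and Id3 windows had no CANNTG. This motif reads the same on both strands and was present in 72.1% of 33469 promoters of the same length, so its presence sets none of these genes apart. A full match to the MEF2 consensus site, searched on both strands, was found in Mef2a (CTAAAAATAG) and Myf6 (CTATATATAA), against 3.29% of all promoters. The Myog window had no full match, but its stretch ctatatttat misses the consensus only at the last base. Near matches were not counted in the other promoters. The element TGATGNAA, bound by ATF4, the factor made when eIF2 alpha is phosphorylated, was in 3.98% of all promoters and in none of the 7. A match is a description of the letters in a window and not a sign of binding.

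The libraries held 77923398 to 119087414 counts each. Control replicate 3 stood apart, with olfactory receptor genes above 0 for 45.4% against 6.24% to 14.5% in the other 5 libraries. Low counts fell near multiples of 6 (12 and 18 were the most frequent counts in their ranges in every library), so the fragments behind a count may be fewer than the count. The targeted gene, Eif2ak3, was 25.8 ± 1.60 CPM (counts scaled to a common library total of 1000000) in control and 26.3 ± 0.318 CPM in adPERK libraries (SD, n = 3; log2 fold change 0.03). It was at -0.02 without control replicate 3. It does not check the labels, and all directions below rest on the labels. Whether a PERK transgene would be counted under the rat gene was not tested. The source label is heart, and the 14 listed cardiomyocyte markers were low or absent. Of these, 8 were too low to test, among them Myh6, Ryr2 and Tbx5, and Tbx20, Nppa and Nppb had 0 counts in all libraries. Of the 6 that were tested, the cardiac transcription factors Hand2 and Gata4 were highest, at means of 8.59 and 3.89 CPM, and the other 4 lay from 0.133 to 1.04 CPM. Hand2 and Gata4 were named after their values were seen. Outside this list, Casq2 and Tnnc1, which are also expressed in heart, had means of 551 and 363 CPM. They are given below among the targets of the myogenic factors. Tnnt2, cardiac troponin T, was also listed among those targets and had a mean of 171 CPM. Tnnt2 was named after its values were seen. Of the 9 skeletal myoblast markers in the table all 9 were tested, with Cdh15, the muscle cadherin, at a mean of 703 CPM and Myl1 and Pax7 at 0.446 and 0.356 CPM.

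Myog fell in the adPERK libraries and was the 1 gene of the 7 tested that changed. Control replicates 1, 2 and 3 held Myog at 474, 491 and 493 CPM, and adPERK replicates 1, 2 and 3 held it at 390, 408 and 401 CPM. All 3 adPERK libraries lay below all 3 control libraries, and the spread within a group was 2.10% of the mean in control and 2.31% in adPERK. Myogenin thus fell by 17.8%, from 486 ± 10.2 to 400 ± 9.25 CPM (SD, n = 3), a log2 fold change of -0.28 (SE 0.03, 95% interval -0.36 to -0.21, edgeR quasi-likelihood adjusted p = 0.0137). With the same test 0.421% of the 14488 tested entries changed, 0.11% lower and 0.311% higher, so a single call among 7 is too few to set the group apart. In a culture, fewer cells that express Myog and less Myog RNA per cell cannot be told apart. The deposited counts behind these levels were 35929 to 52511 per library, and by unadjusted p Myog stood at place 16 of all tested entries.

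The size of the Myog change moved little between fits, but its call stood close to the threshold. The edgeR adjusted p was 0.0261 without control replicate 1. It was 0.0599 without control replicate 2, 0.0594 without control replicate 3, and 0.0632, 0.0586 and 0.0683 without adPERK replicates 1, 2 and 3, with log2 fold changes from -0.30 to -0.26 over these 6 fits. The authors' deposited table gives Myog a log2 fold change of -0.28 with an adjusted p of 0.00558, and there 2.27% of the entries with an adjusted p are under 0.05. Its mean expression for Myog, 13933, is below the lowest of the 6 normalized libraries, 32527. That fit may therefore not rest on these 6 libraries alone.

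**Figure D1:**
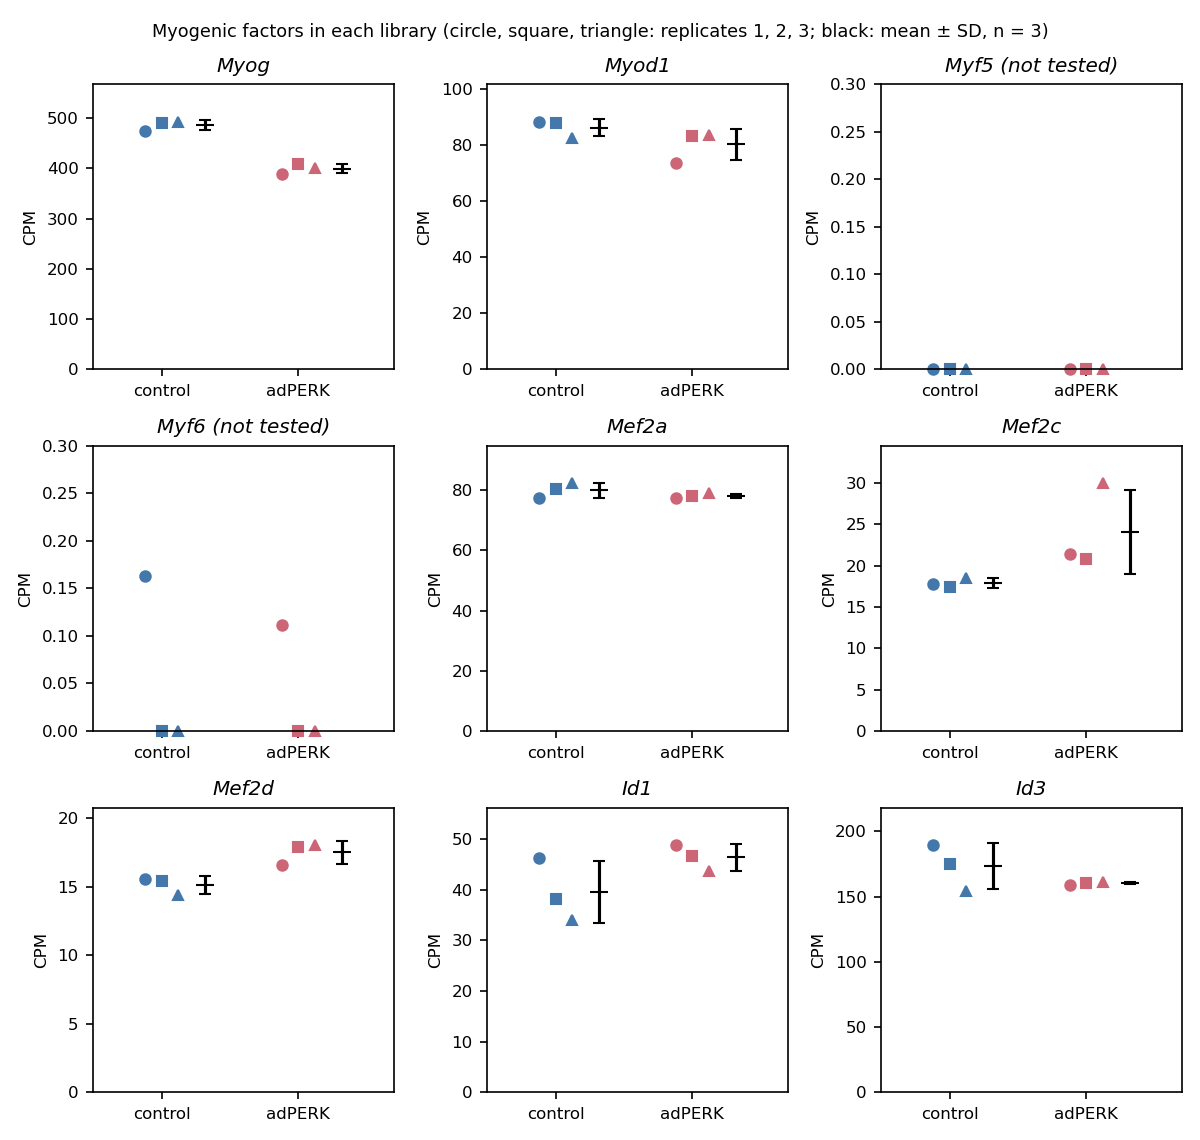
Expression of the 9 genes in CPM (vertical axes, each from 0) in 3 control and 3 adPERK libraries; symbols are replicates and black bars are mean ± SD (n = 3) for tested genes. The Myog groups are apart, at 474 to 493 against 390 to 408 CPM, while Myod1, Mef2a, Id1 and Id3 overlap between groups and Mef2c is highest in adPERK replicate 3.

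Myod1, the factor that sets the lineage upstream of Myog, did not pass the test. The control libraries, in the order of their replicate numbers, gave 88.2, 87.7 and 82.6 CPM, and the adPERK libraries gave 73.7, 83.1 and 83.6 CPM. The lowest value belonged to adPERK replicate 1, and the other adPERK libraries lay just above the lowest control library. The log2 fold change was -0.10 (SE 0.06, 95% interval -0.24 to 0.03, edgeR adjusted p = 0.556), and -0.05 without adPERK replicate 1. That interval still holds a fall close to that of Myog at its lower end.

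Myf5, which like Myod1 marks committed myoblasts, had 0 counts in all 6 libraries. At a lower limit of 18 counts per library, which is 3 steps of 6, this allows at most 0.150 to 0.231 CPM, depending on the library, for counting error only. Myf6, also called MRF4, had 18 counts in control replicate 1, 11 in adPERK replicate 1 and 0 in the other 4 libraries. Both groups were at or under the limit for both genes, so no fold change was computed. Of the 4 myogenic regulatory factors, the counts in these H9c2 libraries thus came from Myog and Myod1, with at most 18 in a library from Myf6.

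The MEF2 genes did not pass the test, and they did not share a pattern. Mef2a, which encodes a MEF2 protein made in many tissues, had 77.3, 80.4 and 82.4 CPM in the control libraries, in the same order, against 77.5, 78.0 and 79.0 CPM in the adPERK libraries. The groups overlapped, and the difference was the smallest among the 7 tested genes (log2 fold change -0.03, SE 0.04, 95% interval -0.13 to 0.07, edgeR adjusted p = 0.825).

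Mef2c, the MEF2 gene required in early heart development and active in differentiating skeletal muscle, had 17.8, 17.4 and 18.5 CPM in the control libraries. The adPERK libraries gave 21.5, 20.8 and 30.0 CPM. All adPERK libraries lay above all control libraries, and replicate 3 stood well above the other 2. Its log2 fold change, 0.43 (SE 0.13, 95% interval 0.12 to 0.73), was the largest in size of the 7, yet the edgeR adjusted p was 0.268. Without adPERK replicate 3 it was 0.24, with an edgeR adjusted p of 0.348. DESeq2 gave Mef2c an adjusted p of 0.0289, under a test that called 2.71% of the same entries, and the adjusted p ranged up to 0.446 over the alternatives. In the RefSeq table Mef2c overlaps the non-coding gene LOC103691412, and whether reads of the pair were kept apart was not given in the sources used here.

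Mef2d, a MEF2 gene used in myoblasts and in differentiated muscle, gave 15.5, 15.4 and 14.4 CPM among control libraries and 16.6, 17.9 and 18.1 CPM among adPERK libraries. The adPERK libraries were again all higher, by a log2 fold change of 0.21 (SE 0.07, 95% interval 0.05 to 0.38, edgeR adjusted p = 0.318). Groups without overlap were found for 3 of the 7 genes, Myog lower and Mef2c and Mef2d higher, while 18.2% of all tested entries had such groups, 8.55% lower and 9.66% higher. Mef2b, the other gene of the family, had 0 to 14 counts per library and was not tested.

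Id1 and Id3 ranged more widely within the control group than their group means differed. Id1, a BMP target that responds quickly to serum, read 46.3, 38.3 and 34.1 CPM across the control libraries and 48.9, 46.7 and 43.6 CPM across the adPERK libraries. Control replicate 1 lay inside the adPERK range and the other control libraries below it (log2 fold change 0.23, SE 0.10, 95% interval -0.0047 to 0.47, edgeR adjusted p = 0.456). The value was 0.36 without control replicate 1 and 0.14 without control replicate 3, the library with many olfactory receptor genes above 0. In the RefSeq table Id1 overlaps the non-coding gene LOC134486187.

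Id3, a close relative of Id1, read 189.8, 175 and 155 CPM across the control libraries and 159, 161 and 161 CPM across the adPERK libraries. The control values spread on both sides of the adPERK values, which lay within 0.599% (SD) of their mean. Its log2 fold change was -0.11 (SE 0.07, 95% interval -0.27 to 0.04, edgeR adjusted p = 0.580), -0.04 without control replicate 1 and -0.19 without control replicate 3. Control replicate 1 was the highest control library and replicate 3 the lowest for both Id1 and Id3. Id2 and Id4, the other 2 genes of the family, were added after their values were seen. Id2 was 33.8 ± 0.963 CPM in control and 31.1 ± 0.936 CPM in adPERK libraries (SD, n = 3), a log2 fold change of -0.12 (edgeR adjusted p = 0.366), and its adPERK libraries all lay below its control libraries. Id4 was 7.54 ± 0.190 and 7.08 ± 0.462 CPM, with overlap. Endothelial cells are rich in Id1 and Id3, and of 6 listed endothelial markers 5 were too low to test. The 6 summed to 1.36 to 2.27 CPM in control and 0.638 to 1.27 CPM in adPERK libraries. The tested one, Tek, an angiopoietin receptor picked out after its values were seen, was at 1.40 ± 0.145 and 0.792 ± 0.134 CPM, without overlap (SD, n = 3; a log2 difference of -0.82 with an edgeR adjusted p of 0.225). Any part of endothelial cells in the Id1 and Id3 values was not tested.

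**Figure D2:**
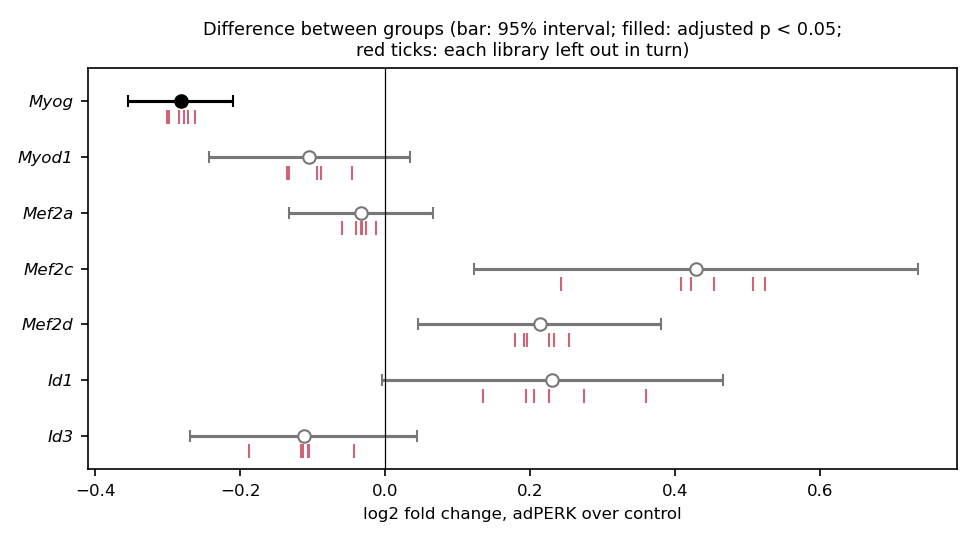
Log2 fold change (horizontal axis) of the 7 tested genes with 95% intervals; the filled point passed an edgeR adjusted p of 0.05 and red ticks show the value with each library left out. Myog lies at -0.28 with the narrowest interval, and Mef2c ranges from 0.24 to 0.52 across the ticks.

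Ratios within a library do not depend on how libraries are scaled to each other, and they set the Myog difference beside that of each other factor. The log2 ratio of Myog to Mef2a was 2.62, 2.61 and 2.58 among the control libraries and 2.33, 2.39 and 2.35 among the adPERK libraries. It did not overlap between groups. The ratio to Mef2d was lower in adPERK by 0.50 on the log2 scale (difference -0.50), from 5.01 ± 0.0849 to 4.51 ± 0.0414 (SD, n = 3). The differences were -0.69 for the ratio to Mef2c and -0.52 for that to Id1, with no overlap.

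The ratio of Myog to Myod1 was 2.43, 2.48 and 2.58 among control and 2.40, 2.30 and 2.26 among adPERK libraries, a difference of -0.18, and adPERK replicate 1 lay only just below control replicate 1. The ratio to Id3 overlapped between groups (difference -0.18). Of 6 ratios, 5 gave p = 0.1 (adjusted p = 0.12) and that to Id3 p = 0.2 in two-sided exact permutation tests of 3 against 3 libraries, where 0.1 is the smallest p such a design can give. None could therefore pass 0.05, and the ratios stand as values of these libraries. All 6 share Myog, whose groups lay apart, so they partly restate its difference. For Mef2c and Mef2d, whose groups lay apart the other way, the ratios could not overlap. How often such ratios lie apart over all genes was not tested.

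**Figure D3:**
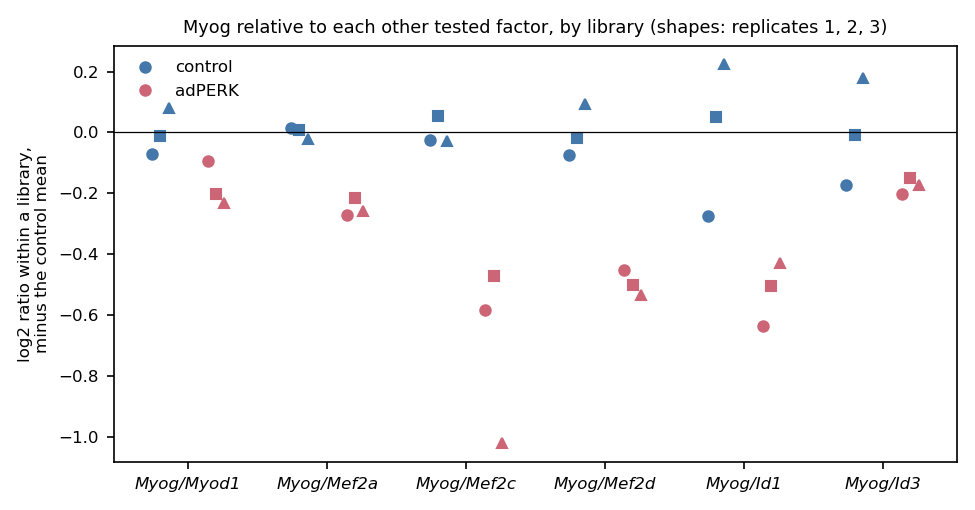
Log2 ratio of Myog to each other tested factor within a library, less the control mean (vertical axis), for control (blue) and adPERK (red) libraries; symbols are replicates. The adPERK points lie below the control points for 5 of the 6 ratios and overlap them for Id3.

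Other genes of the same network showed no change that passed the test, and limma voom passed 0 of the tested genes in each of the 4 lists. Over all tested entries 11.2% had an unadjusted p under 0.05 in edgeR and 2.71% passed DESeq2, and the counts of each list are to be read against these shares. Of 26 partners and upstream regulators of the myogenic factors, all were in the table, 21 were tested and 0 passed edgeR (6 had an unadjusted p under 0.05, and 2 passed DESeq2). Their median log2 fold change was -0.04, beside -0.0045 over all tested entries. Fst, encoding the myostatin inhibitor follistatin, was 170 ± 2.01 CPM in control and 180 ± 3.30 CPM in adPERK libraries (log2 fold change 0.08, edgeR adjusted p = 0.405). Of the E proteins that pair with the myogenic factors, Tcf3 was at 128 ± 4.29 and 115 ± 5.72 CPM (log2 fold change -0.15, edgeR adjusted p = 0.282). Tcf12 was at 65.6 ± 3.41 and 69.6 ± 2.96 CPM (0.08). Zeb1, a repressor that binds E-box-like sites and was singled out after its values were seen, was at -0.21 (edgeR adjusted p = 0.204). Groups without overlap were found for 5 of the 21 genes lower and 1 higher, beside 8.55% lower and 9.66% higher over all tested entries.

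Among MEF2 and SRF partners, 22 of 25 symbols were in the table, 20 were tested and 0 passed edgeR (2 had an unadjusted p under 0.05, and 1 passed DESeq2), with a median of 0.05. Srf, the serum response factor, was 63.4 ± 2.93 CPM in control and 73.0 ± 4.07 CPM in adPERK libraries, without overlap (log2 fold change 0.20, SE 0.06, edgeR adjusted p = 0.225). Camk2d, a calcium-dependent kinase subunit, was at 0.0050, and -0.01 and -0.03 without control replicate 1 and without adPERK replicate 2. Nfatc3, a calcineurin-dependent factor, was at -0.10. Hdac5, a deacetylase that binds and represses MEF2 proteins and was picked out after its values were seen, was at 26.9 ± 1.33 and 31.2 ± 1.35 CPM (0.21, edgeR adjusted p = 0.204).

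Targets of the myogenic factors in differentiation gave no call in either direction. Of 37 listed targets, 36 were tested and 0 passed edgeR (5 had an unadjusted p under 0.05, and 3 passed DESeq2). Of these 36, 22 lay above 0 and 14 below, with a median of 0.05. The 37 summed to 4017 to 4283 CPM in control and 4297 to 4417 CPM in adPERK libraries, without overlap. Groups without overlap were found for 7 of them higher and 2 lower, beside 9.66% and 8.55% of all tested entries. Cdh15 was 688 ± 22.0 CPM in control and 718 ± 25.9 CPM in adPERK libraries (log2 fold change 0.06, edgeR adjusted p = 0.593). Casq2, a calcium store protein, was at 536 ± 19.5 and 566 ± 28.3 CPM (0.08), and Tnnc1, the slow and cardiac troponin C, at 343 ± 6.84 and 382 ± 12.3 CPM (0.15, edgeR adjusted p = 0.150).

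Other targets were chosen after their values were seen. Itga7, the laminin receptor subunit of muscle, was at 301 ± 8.32 and 334 ± 2.32 CPM (0.15, edgeR adjusted p = 0.131). Tmem8c, which encodes the fusion protein myomaker, was at 19.7 ± 1.20 and 21.8 ± 1.25 CPM (0.15, edgeR adjusted p = 0.481). Cdkn1a, the cell cycle inhibitor p21 that Myod1 induces, was at 212 ± 8.04 and 187 ± 4.78 CPM (-0.18, edgeR adjusted p = 0.134). With the robust fit, which called 0.911% of entries, Itga7 and Cdkn1a had adjusted p of 0.0499 and 0.0459. Some marker sums differed between the groups without overlap. The endothelial sums above were lower in adPERK libraries. Those of the 6 listed epithelial markers were higher, at 39.0 to 40.4 CPM in control and 41.0 to 41.8 CPM in adPERK libraries. Cardiomyocyte and leukocyte sums overlapped. How often sums of other gene sets lie apart was not tested. The 9 skeletal myoblast markers, all tested with 0 called by edgeR and 1 each by DESeq2 and the robust fit (1 at an unadjusted p under 0.05), summed to 1100 to 1166 CPM in control and 1170 to 1218 CPM in adPERK libraries. Most of that sum was Cdh15 and Itga7, and over the 9 genes 5 lay above 0 and 4 below, with a median log2 fold change of 0.02. The 6 smooth muscle markers, all tested with 0 called by edgeR or DESeq2 (2 at an unadjusted p under 0.05), summed to 3140 to 3220 and 3257 to 3467 CPM. The 7 fibroblast markers, 6 of them tested with 0 called by edgeR and 1 by DESeq2 (2 at an unadjusted p under 0.05), summed to 25272 to 26627 and 26702 to 27780 CPM. Nearly all of that sum was Col3a1 and Col1a1, collagen chains with means of 17005 and 9439 CPM, while 3 of the 6 tested markers lay above 0 and 3 below, with a median log2 fold change of -0.10. Lum, the matrix proteoglycan lumican, was at 13.2 ± 0.518 CPM in control and 10.5 ± 0.664 CPM in adPERK libraries, without overlap (SD, n = 3; -0.34, edgeR adjusted p = 0.198), and was the marker that DESeq2 called (adjusted p = 0.0430). The collagens and Lum were named after their values were seen. The part of these marker sets in the Myog difference was not tested.

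The BMP and SMAD genes that lie upstream of the ID genes were also without calls. All 32 were in the table, 31 were tested and 0 passed edgeR (2 had an unadjusted p under 0.05, and 1 passed DESeq2), with 14 above 0, 17 below and a median of -0.0027. Bmpr1a, a BMP type I receptor, was 84.3 ± 3.08 CPM in control and 72.1 ± 2.10 CPM in adPERK libraries, without overlap (log2 fold change -0.23, SE 0.05, edgeR adjusted p = 0.121). Tgfb2, a TGF-beta ligand, was at 330.5 ± 9.91 and 341 ± 10.7 CPM (0.05).

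**Figure D4:**
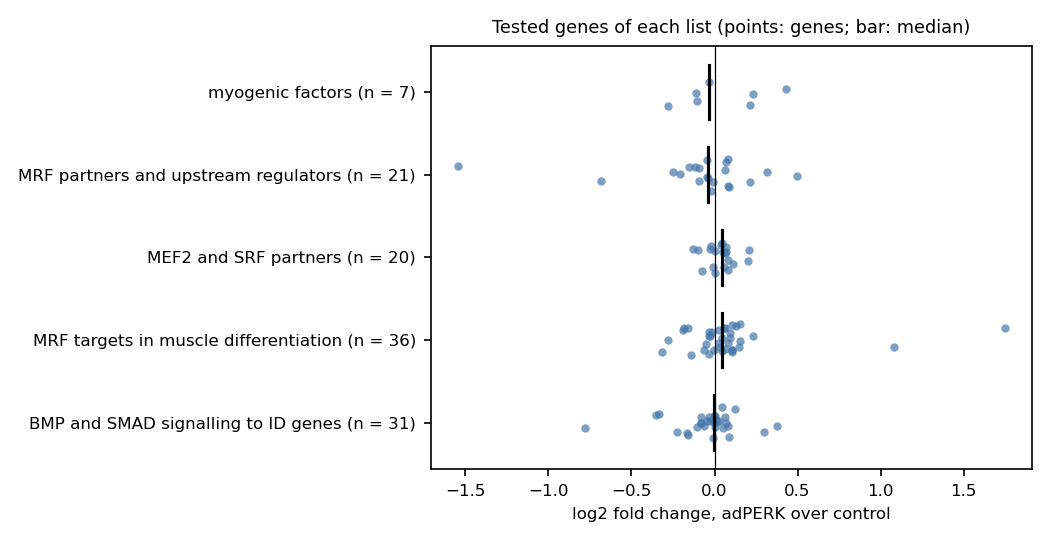
Log2 fold changes (horizontal axis) of tested genes in the 7 myogenic factors and the 4 lists of network genes; points are genes and bars are medians, which lie between -0.04 and 0.05. Points far from 0 in the 4 lists belong to genes of low count, and none of those 4 lists holds a gene that passed edgeR.

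The entries whose 6-library profile lay nearest to that of Myog were Zcchc24, Olfml2b, Six4, Cdc25b and Asf1b, out of 9084 with at least 5 CPM and an ordinary symbol. Likeness was the root mean square distance between log2 CPM profiles, each centred on its own mean, and ran from 0.02 (Zcchc24) to 0.04 (Asf1b), beside a spread of 0.14 in the Myog profile itself. Zcchc24 fell from 92.8 ± 2.56 to 76.1 ± 1.28 CPM and Olfml2b from 187 ± 5.22 to 156 ± 2.64 CPM (SD, n = 3), with edgeR adjusted p of 0.0390 and 0.0271. The Zcchc24 call ended whichever library was left out, and the Olfml2b call ended in most of these fits. Zcchc24 had an edgeR adjusted p of 0.0820 to 0.176 over the 6 fits with 1 library left out. Olfml2b had 0.0850 to 0.123 in 5 of them and kept its call without control replicate 1.

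Six4 is a homeobox factor that binds the Myog promoter and is 1 of the 21 tested regulators. It was 35.5 ± 0.430 CPM in control and 29.9 ± 1.25 CPM in adPERK libraries (log2 fold change -0.25, edgeR adjusted p = 0.0737). Cdc25b, a phosphatase that opens entry to mitosis, and Asf1b, a histone chaperone, had log2 fold changes of -0.30 and -0.24 with edgeR adjusted p of 0.0603 and 0.0550. These 5 were picked for their likeness to Myog in the same libraries, so their direction is fixed by the choice.

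**Figure D5:**
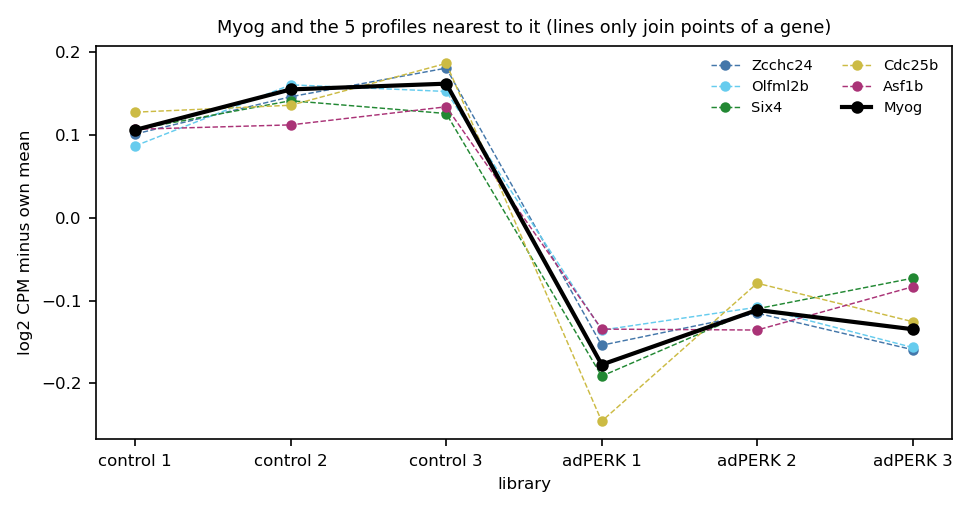
Log2 CPM less the gene's own mean (vertical axis) in the 6 libraries (horizontal axis) for Myog in black and the 5 entries nearest to it in colour. All 6 profiles are higher in the 3 control libraries than in the 3 adPERK libraries, and Cdc25b is the lowest in adPERK replicate 1.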

How the data were processed

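RNA was measured in 6 H9c2 libraries, each made from 1 ug of RNA with a TruSeq kit, per the labels' protocols. The authors' deposited table gives whole-number counts for 26126 entries. Rat gene names label these entries, whereas Bowtie 0.12.2 and mm9, a mouse build, appear in the submitters' processing notes. How reads were counted, and whether by strand, was not given in the sources used here. Columns of normalized signal and mean expression, as deposited, the authors' log2 fold changes with standard errors, their test score and their deposited p-values entered no test. Another table, with 6 per-sample columns that no label matches, was left out.

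Entries were kept by filterByExpr at a minimum count of 10 (14488 remained), scaled by TMM and tested in edgeR 4.0.16 (R 4.3.3) with glmQLFit and glmQLFTest, all 6 libraries, with group as sole term. Adjustment was by Benjamini-Hochberg over all tested entries at 0.05. Standard errors are the fold change over the root of F, and 95% intervals use its degrees of freedom. Log2 CPM profiles used a prior count of 2. Totals per library ranged from 77923398 to 119087414, and counting intervals and limits cover counting error only. Libraries of 1 group differed by at least 133 times the sampling noise of the deposited counts (chi-square per degree of freedom), so none was a copy of another. That noise is understated where counts exceed the fragments behind them. Whether libraries were made from the same RNA was not tested. Nothing in the labels ties replicates to separate cultures. P-values therefore reflect only how these libraries spread, which may be technical.

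The 9 genes and the lists were chosen with earlier results of these data known. Named genes are the 9, Eif2ak3, the called members of each list or otherwise its 3 most abundant tested members, and the 5 nearest profiles of a called gene; others are said to be chosen after their values were seen. A gene that the rule takes is not reported here, and it stays in the tests and counts. Of 10 skeletal myoblast and 7 endothelial symbols, 9 and 6 were in the table. For leukocytes 3 of 6 listed markers and for epithelium 2 of 6 were tested, with 0 called. Alternatives were other scalings, filters, DESeq2 1.42.0, limma 3.58.1 voom, a robust fit, counts divided by 6, a replicate block and each library left out. The fits were tested on simulated data. There, a true difference of 1.2-fold was mostly missed by edgeR, with 4 calls for 50 such genes. It made 32 calls for 50 genes at 1.5-fold, and all 50 at 2-fold were called. False calls made up 10 of the 146 from edgeR and 38 of the 185 from DESeq2. A gene without an edgeR call may therefore still differ by about 1.2-fold, and some by 1.5-fold. Simulated differences were given only to genes with a mean of at least 5 CPM, so genes below that were not covered.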

Additional observations from a re-analysis of the deposited data

Results flagged for a closer look

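The mean expression column of the authors' deposited table held values for 3 of the 9 genes above the highest of their 6 normalized libraries. The authors' deposited table gives Mef2a 9638 where the normalized columns reach 6855, and Mef2d 1531 where they reach 1504. For Myf5 the authors' deposited table gives a mean expression of 1.24, although its count is 0 in all 6 libraries. A mean of the 6 columns alone cannot exceed the highest of them, so this column is not such a mean, and what else entered it was not given in the sources used here.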

How the results depend on the processing

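Of 37 named and tested genes, Tnnt2 not included, 35 had the same sign in all alternatives run on them, the 7 myogenic factors among them. The exceptions lay near 0: with 1 library left out, Eif2ak3 ranged from -0.020 (without control replicate 3) to 0.060, and Camk2d from -0.032 (without adPERK replicate 2) to 0.026. The 61 entries that changed became 392 with DESeq2, 110 with limma voom, 94 with no low-count filter, 93 with counts divided by 6, 132 with the robust fit, and 12 to 38 with 1 library left out. The 1 changed myogenic factor became 2 with DESeq2 (Myog and Mef2c) and 0 to 1 with 1 library left out. With a replicate block the entries that changed numbered 9 and the myogenic factors 0, with Myog at -0.28 (edgeR adjusted p = 0.0567). The numbers gave no sign of pairing: deviations from the group mean in same-numbered libraries correlated across genes at -0.31, -0.04 and 0.04. No control library correlated best with its own number. With 3 libraries a group these deviations are not independent, and whether same-numbered libraries shared a batch or culture was not tested. Without 1 library Myog ranged from -0.30 to -0.26. Fits with a library left out hold fewer samples. Depth did not allow a test of Myf5 or Myf6, and with 3 libraries a group the ratio tests could not pass 0.05. Over the libraries left out, the ratio differences ranged for Myod1 from -0.22 to -0.13, for Mef2a from -0.27 to -0.24, for Mef2c from -0.80 to -0.53, for Mef2d from -0.53 to -0.45, for Id1 from -0.66 to -0.41 and for Id3 from -0.26 to -0.09.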

Other observations

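The mean expression column of the authors' deposited table sat far below the 6 libraries for both expressed myogenic regulatory factors. The authors' deposited table gives Myog 13933, where the 6 normalized columns average 36841, a ratio of 0.378, and only 0.345% of the 14488 tested entries had a lower ratio. For Myod1 the authors' deposited table gives 2760 against an average of 6917, a ratio of 0.399, with 0.476% of tested entries lower. The median ratio of the authors' deposited table to the 6 libraries over all tested entries was 1.02, and the quartiles were 0.801 and 1.37. By the authors' deposited table Id1 and Id3 had ratios of 0.822 and 0.679, and Mef2c and Mef2a had 1.34 and 1.46. The low-count gene Mef2b has a mean of 151.6 in the authors' deposited table, where its 6 normalized columns average 4.86 and reach 12.8. The authors' deposited table also gives the Myod1 log2 fold change of -0.10 a standard error of 0.746, where the standard error from edgeR over the 6 libraries was 0.06. These values are given as they stand, and the samples behind that column were not given in the sources used here.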
